A study of Mus musculus with 4 samples.

Results

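The genes described here are 55 genes of ribosome biogenesis and the nucleolus, taken by symbol from a list of factors for RNA polymerase I transcription, small nucleolar ribonucleoproteins (snoRNPs) and assembly of the 40S and 60S ribosomal subunits. All 55 were found among the 21834 genes of the deposited table, and all 55 were among the 11448 genes tested. RNA was sequenced in 4 libraries of mouse bone marrow derived monocytes after 3 days with RANKL, the cytokine that turns these precursors into osteoclasts. By genotype, 2 libraries are labelled Nat10 conditional knockout (cKO) and 2 wild type (WT). Both groups share the tissue, the RANKL treatment, the time and, per the labels, a cycloheximide wash. The sources used here do not name the Cre driver, the deleted exons, or the age, sex and strain of the mice. They also leave unsaid whether replicates came from separate mice, so p-values reflect only how far these libraries vary, and that variation may be technical.

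Ribosomes are built in the nucleolus. RNA polymerase I transcribes a long precursor of the 18S, 5.8S and 28S ribosomal RNAs. Guide snoRNPs then modify it, box C/D particles by 2′-O-methylation and box H/ACA particles by pseudouridylation. The small subunit processome, assembled around the U3 snoRNP, folds and cleaves the 18S part, while a separate set of GTPases, helicases and AAA ATPases builds the 60S subunit. Nat10 itself belongs to this machinery, because its protein is a nucleolar enzyme that acetylates cytidines of 18S ribosomal RNA. The table counts messenger RNAs of these factors, and ribosomal RNA and snoRNAs were not analysed here.

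Total counts ran from 10037338 to 14097638 per library, and the members took 0.332% to 0.360% of them, with 113 to 9631 counts per member and library. Nat10 was measured first, as a check of the labels. It stood at 15.9 and 14.3 CPM (counts per 1000000, after TMM scaling) in the libraries labelled Nat10 cKO and at 16.9 and 18.6 CPM in WT, a log2 fold change of -0.24 (standard error, SE, 0.153; edgeR adjusted p = 0.263). The groups did not overlap, yet Nat10 was not called, and a whole-gene count cannot show the loss of single exons. Directions below therefore rest on the labels. Among 10 markers of osteoclasts, 7 were called higher and 2 lower, where 14.4% of all tested genes were called in each direction. Their summed levels were 6304 to 7028 CPM in the cKO libraries and 4885 to 5153 CPM in WT. The lower 2 were Calcr (log2 fold change -0.95, edgeR adjusted p = 0.0071) and Dcstamp (-0.42, edgeR adjusted p = 0.0186). Acp5, Ctsk and Mmp9 were abundant in every library.

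Most members differed little between the groups, and those that passed the test were mainly lower in the cKO group. Of the 55 members, 12 were called lower and 1 higher at an edgeR adjusted p under 0.05, and 42 were not called. That is 21.8% lower against 14.4% of all tested genes, and 1.82% higher against 14.4%. With upper-quartile factors, 19.6% of tested genes were called higher and 9.70% lower, and 10 members were lower and 3 higher. The 12 were Rcl1, Tcof1, Rrs1, Nop58, Rrp9, Imp4, Mdn1, Ddx10, Polr1a, Dcaf13, Rrn3 and Nop56, and the higher member was Npm1. Changes were small: log2 fold changes, cKO minus WT, ran from -0.81 for Rcl1 to 0.33 for Npm1, 7 members (12.7%) reached 0.5 in size against 25.3% of tested genes, and 0 reached 1 against 9.70%.

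The members as a set were shifted to the lower side. Their median log2 fold change was -0.15, with quartiles of -0.27 and -0.047, against a median of 0.0075 and quartiles of -0.24 and 0.29 for all tested genes. The log2 fold change was negative for 46 of 55 members (83.6%) and for 49.1% of tested genes. This split depends on scaling, since upper-quartile factors raised the median of all genes to 0.11 and left 32 members negative with a median of -0.049. Relative to the median of all tested genes the members' median was -0.15 under TMM and -0.15 under upper-quartile factors. Both cKO libraries lay below both WT libraries for 27 members (49.1%, against 31.3% of tested genes) and above them for 8 (14.5%, against 32.3%). In either direction the groups were apart for 63.6% of tested genes.

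**Figure D1:**
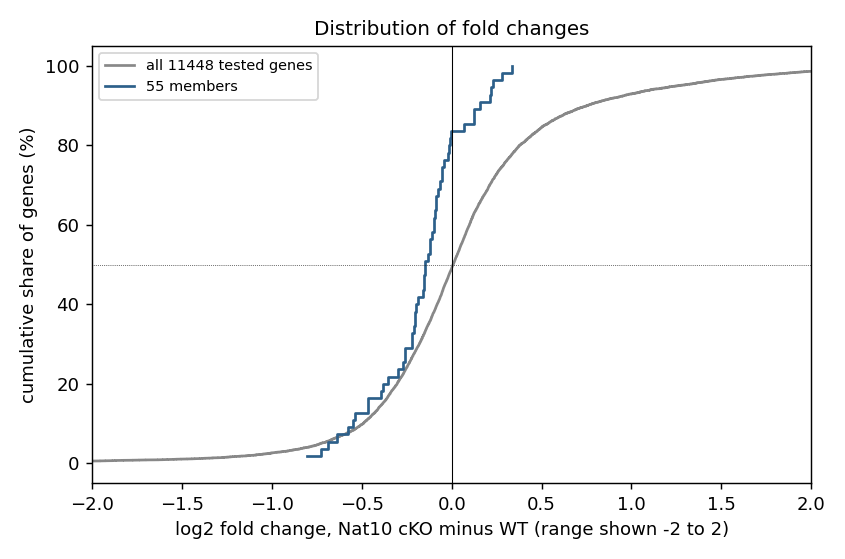
Cumulative share of genes (vertical axis, %) by log2 fold change, Nat10 cKO minus WT (horizontal axis), for the 55 members and all 11448 tested genes. The curve of the members crosses 50% at -0.15 and ends at 0.33, while that of all genes crosses near 0 and goes on beyond the range shown.

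**Figure D2:**
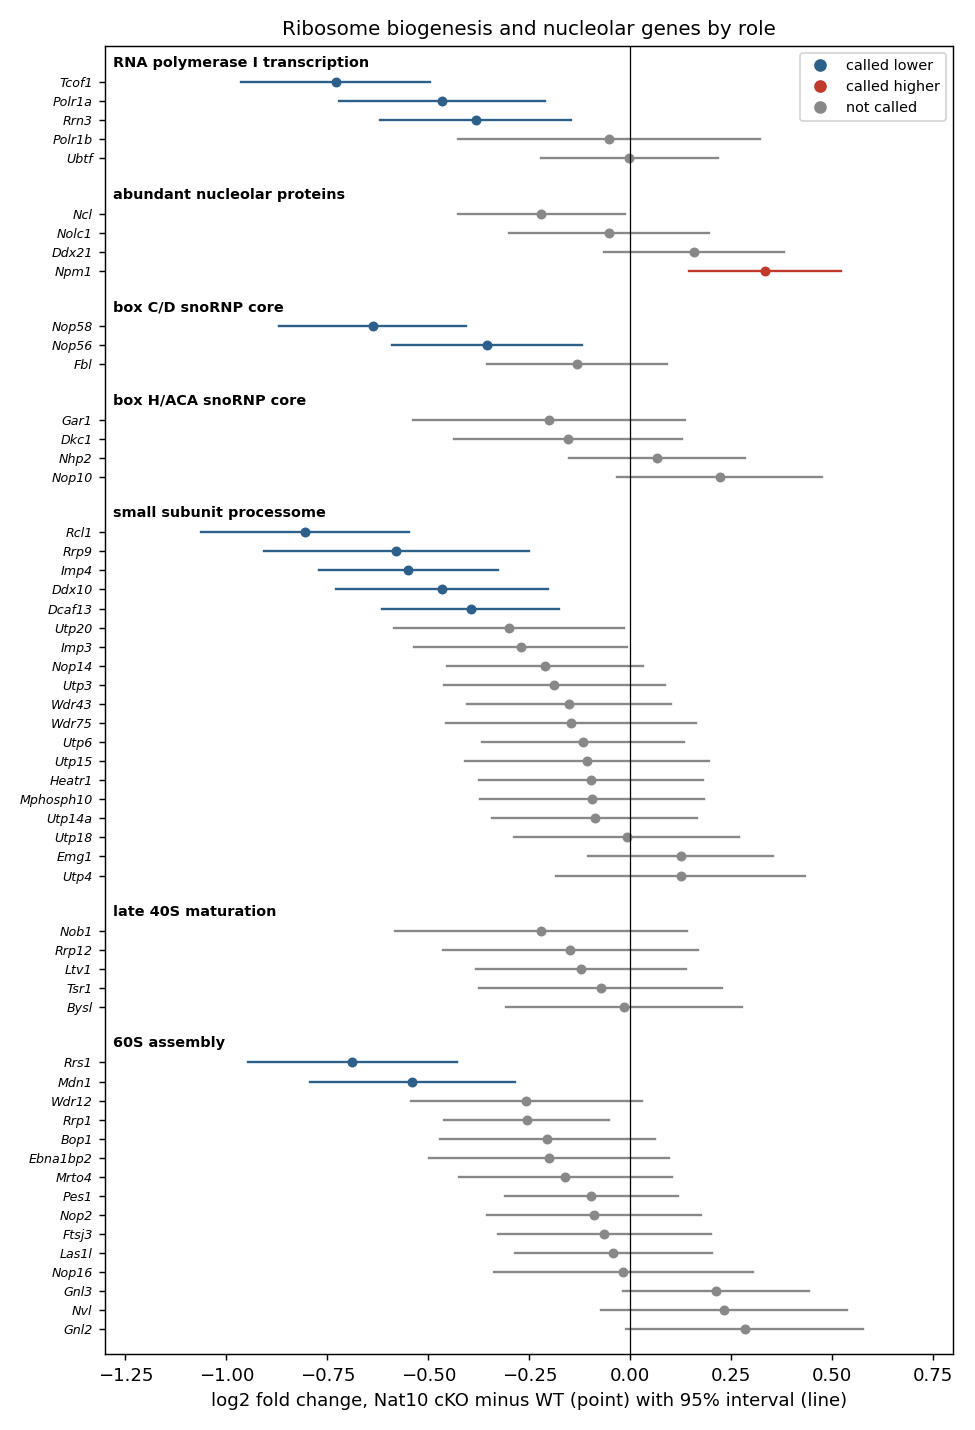
Log2 fold change of each of the 55 members (point) with its 95% interval (line), grouped by role. The 12 members called lower sit in the RNA polymerase I, box C/D, small subunit processome and 60S groups, and Npm1 is the member called higher.

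Markers of other cells and of the cell cycle moved between the same libraries. Among all tested genes, 14.4% were called higher and 14.4% lower. Of 11 tested stromal and osteoblast markers 10 were higher, with a summed level of 1687 to 1797 CPM in the cKO libraries and 456 to 518 CPM in WT. Of 6 tested neutrophil markers 4 were higher and 1 lower (805 to 907 against 485 to 499 CPM). Of 10 macrophage markers 5 were higher and 2 lower (30310 to 34170 against 19270 to 21240 CPM). Of 18 cell cycle genes 15 were higher and 1 lower (453 to 473 against 292 to 295 CPM). Of 3 tested liver markers, Alb and Apoa1 were called lower and Afp was not called (-0.36, edgeR adjusted p = 0.112). The 5 listed liver markers summed to 15.0 to 21.7 against 46.0 to 67.8 CPM, and most of the cKO sum was Afp. Alb was at 0.26 and 0.98 CPM in the cKO libraries and 43.7 and 19.7 CPM in WT. Apoa1, Ttr and Serpina1a were at 0 in both cKO libraries. The part of these cells in the members' differences was not tested. In a bulk library, fewer cells of a type and less RNA per cell cannot be told apart.

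Promoters were searched because several members were lower together. RefSeq promoters on GRCm38.p6, from 250 bases before to 50 after each start, were found for 46 members, in 53 windows. The E-box CACGTG, the letters bound by MYC and related proteins, was in 11 of the 53 windows (20.8%), against 10.0% of 11764 windows of tested genes and 7.15% of all 32851. The letters CCGGAAG, on either strand, known from ETS factors, were in 17 windows (32.1%), against 2116 of the 11764 windows and 8.86% of all. Both strands were searched. The median GC content was 59.3% for windows of members, 60.7% for tested genes and 52.7% for all. By call and counted per gene, the E-box was in 3 of 9 lower members with a promoter (Imp4, Mdn1 and Rrn3), or 33.3%. It was in 8 of 37 members that were not called (21.6%) and in 11.9% of 9211 tested genes with a promoter. The ETS letters were in 2 of 9 and 15 of 37 (22.2% and 40.5%), against 21.1% of the tested genes. No promoter was found for the called members Tcof1, Rrs1, Dcaf13 and Npm1. These shares are descriptions of the letters present, not sites of binding. The promoters of Imp4, Mdn1 and Rrn3 are printed to show where the E-box lies. That of Imp4 is chr1:34439579-34439878, plus strand, with the E-box beginning 121 bases before the start. That of Mdn1 is chr4:32656869-32657168, plus strand, with the E-box 38 bases after the start. That of Rrn3 is chr16:13780449-13780748, plus strand, with E-boxes 215 and 48 bases before the start and ETS letters on the reverse strand 5 bases before and 18 after it. All are written 5′ to 3′ on GRCm38.p6, the motifs do not overlap in these windows, and capitals mark the E-box and the ETS letters.
Imp4: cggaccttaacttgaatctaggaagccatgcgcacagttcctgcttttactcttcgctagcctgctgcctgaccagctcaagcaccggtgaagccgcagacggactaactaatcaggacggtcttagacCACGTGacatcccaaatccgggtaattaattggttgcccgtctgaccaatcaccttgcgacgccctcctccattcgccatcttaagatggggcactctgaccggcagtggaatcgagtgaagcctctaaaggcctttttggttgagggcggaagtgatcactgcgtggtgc
Mdn1: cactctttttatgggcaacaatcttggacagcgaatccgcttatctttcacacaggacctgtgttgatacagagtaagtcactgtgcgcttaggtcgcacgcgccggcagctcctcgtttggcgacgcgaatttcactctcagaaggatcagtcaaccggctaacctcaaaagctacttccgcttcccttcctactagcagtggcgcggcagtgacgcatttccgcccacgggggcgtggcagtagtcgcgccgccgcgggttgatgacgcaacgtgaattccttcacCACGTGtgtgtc
Rrn3: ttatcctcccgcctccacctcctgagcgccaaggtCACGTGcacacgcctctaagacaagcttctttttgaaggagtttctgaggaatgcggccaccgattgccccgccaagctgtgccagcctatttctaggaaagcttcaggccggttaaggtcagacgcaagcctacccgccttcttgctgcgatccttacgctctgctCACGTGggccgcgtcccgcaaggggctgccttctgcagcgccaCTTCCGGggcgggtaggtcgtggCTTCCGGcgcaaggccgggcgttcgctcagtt

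Transcription of ribosomal DNA was the role with the lowest median (-0.38 over 5 members, 3 lower and 0 higher). Among all tested genes 14.4% were called in each direction. The 10 other tested RNA polymerase I genes, which are not members, had a median of 0.029, with 5 negative, 2 lower and 0 higher. Tcof1, which encodes treacle, a nucleolar scaffold that brings RNA polymerase I to ribosomal DNA, had the clearest fall of the 5 members. It stood at 62.9 and 59.7 CPM in the cKO libraries and 110.9 and 92.5 CPM in WT, so its log2 fold change was -0.73 with an SE of 0.112 and a 95% interval from -0.96 to -0.50 (edgeR adjusted p = 7.1e-05). Both WT values were above both cKO values. Polr1a, the largest subunit of the polymerase, was at 34.2 and 29.6 against 46.1 and 42.1 CPM (-0.47, SE 0.121, edgeR adjusted p = 0.00732). Rrn3, which links the polymerase to its promoter, was at 36.2 and 38.5 against 47.1 and 50.4 CPM (-0.38, SE 0.113, edgeR adjusted p = 0.0160). Neither gene's groups overlapped. The remaining members of the group were level: Ubtf, the factor that binds the ribosomal DNA promoter and gene body, was at 69.4 and 75.9 against 73.3 and 72.4 CPM (-0.0021, 95% interval -0.22 to 0.22), and the subunit Polr1b at 11.4 and 10.1 against 11.5 and 10.7 CPM (-0.053, 95% interval -0.43 to 0.32). For both the groups overlapped. Leaving out WT replicate 1 ended the call of Polr1a (-0.41, adjusted p = 0.0770), and that of Rrn3 ended without WT replicate 2 (-0.34, adjusted p = 0.167), in DESeq2 (-0.40, adjusted p = 0.0660) and with upper-quartile factors (-0.28, adjusted p = 0.0693).

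Of the 4 abundant nucleolar proteins, 1 was called higher and 0 lower, and their log2 fold changes were 2 positive and 2 negative. Over all tested genes, 14.4% were called in each direction and 49.1% were negative. Npm1, nucleophosmin, a scaffold of the granular part of the nucleolus, was the most abundant member per length and the one that rose. It stood at 671 and 671 CPM in the cKO libraries and 540 and 524 CPM in WT, which gave 0.33 on the log2 scale with an SE of 0.0898 and a 95% interval from 0.15 to 0.52 (edgeR adjusted p = 0.00895). The cKO values were nearly equal and above both WT values. The call ended without WT replicate 1 (0.35, adjusted p = 0.118) or WT replicate 2 (0.30, adjusted p = 0.187), and Npm1 has processed pseudogenes in the mouse genome, so its count may include or lose shared reads. Ncl, nucleolin, which binds ribosomal DNA and precursor RNA, was at 551 and 471 against 613 and 577 CPM (-0.22, SE 0.0981, edgeR adjusted p = 0.103). It was lower in both cKO libraries without passing, and was called without cKO replicate 1 (-0.35, adjusted p = 0.000700). Nolc1, a chaperone of snoRNPs, had 48.4 and 40.4 against 46.8 and 45.2 CPM (-0.053), and the RNA helicase Ddx21 had 95.1 and 82.9 against 79.1 and 80.3 CPM (0.16, edgeR adjusted p = 0.295).

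Guide snoRNPs have a core of proteins that binds the guide RNA. Of the 3 box C/D proteins among the members, 2 were lower, against 14.4% of all tested genes. The paired scaffold proteins were lower and the enzyme was not called. Nop58 stood at 54.9 and 48.0 CPM in the cKO libraries and 83.7 and 76.4 CPM in WT (-0.64, SE 0.111, 95% interval -0.87 to -0.41, edgeR adjusted p = 0.000250). Its partner Nop56 was at 55.1 and 54.5 against 76.6 and 63.8 CPM (-0.35, SE 0.113, edgeR adjusted p = 0.0240). The WT libraries disagreed over Nop56 more than over Nop58. Its call ended without WT replicate 1 (-0.23, adjusted p = 0.380), in DESeq2 (-0.37, adjusted p = 0.0684), with upper-quartile factors (-0.26, adjusted p = 0.0981) and with library size only (-0.29, adjusted p = 0.0658). Fbl, fibrillarin, the methyltransferase of the particle, was at 69.9 and 75.3 against 75.3 and 83.7 CPM (-0.13, 95% interval -0.35 to 0.09), with overlapping groups.

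In the box H/ACA particle 0 of 4 members were called by edgeR or DESeq2, and 0 had an unadjusted p under 0.05. By edgeR, 28.8% of all tested genes were called in either direction. Dkc1, dyskerin, the pseudouridine synthase, was at 37.8 and 29.2 against 39.3 and 35.1 CPM (-0.15). Gar1 had 14.4 and 12.7 against 16.2 and 14.9 CPM (-0.20), and Nhp2 had 76.1 and 83.3 against 77.6 and 74.7 CPM (0.067). Nop10, the smallest of these proteins, was at 40.8 and 47.8 against 39.9 and 36.3 CPM (0.22, 95% interval -0.03 to 0.47). The signs were split evenly, and the 95% intervals of the 4 genes ran from -0.54 to 0.47 in all. Whether the particle classes differ from each other was not tested. The 3 box C/D members summed to 180 and 178 CPM in the cKO libraries and 236 and 224 CPM in WT. That sum leaves out Snu13, which was counted with the snoRNP assembly factors and was not called (-0.19, edgeR adjusted p = 0.227). The box H/ACA core had 169 and 173 CPM against 173 and 161 CPM, with overlapping groups.

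**Figure D3:**
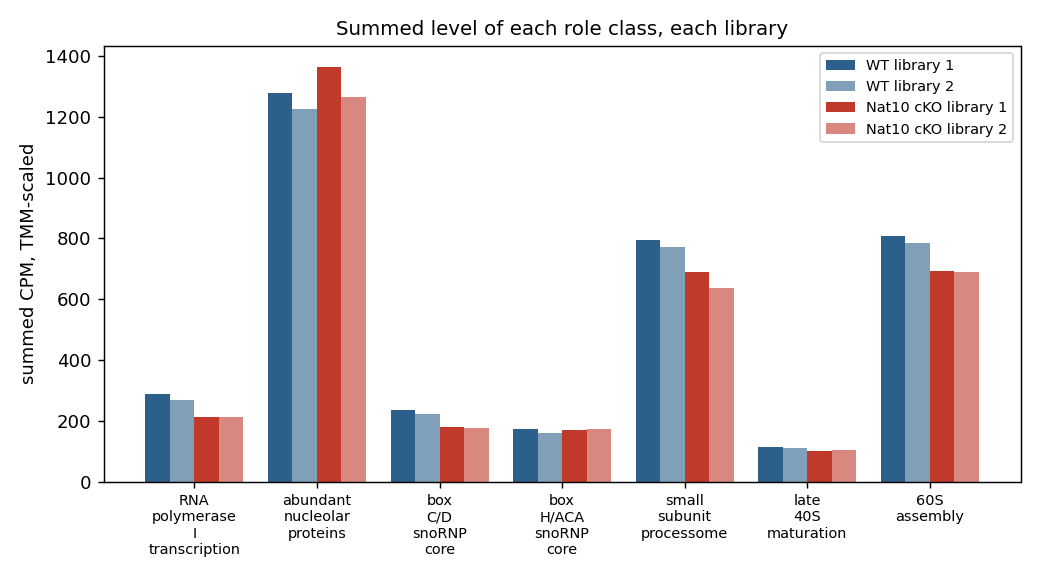
Summed TMM-scaled CPM of the members of each role (vertical axis, starting at 0) in each library. In the RNA polymerase I, box C/D, small subunit processome, late 40S and 60S groups both cKO libraries lie below both WT libraries, and in the abundant nucleolar and box H/ACA groups the bars of the 2 genotypes overlap.

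In the small subunit processome, 5 of 19 members were lower and 0 higher, with a median of -0.15 and 17 negative values. Among all tested genes 14.4% were called in each direction and 49.1% were negative. Rcl1, a cyclase-like protein needed for early cleavage of the precursor RNA in yeast, had the largest change of any member. It stood at 28.3 and 25.8 CPM in the cKO libraries and 50.7 and 43.9 CPM in WT, or -0.81 on the log2 scale with an SE of 0.123 and a 95% interval from -1.06 to -0.55 (edgeR adjusted p = 6.82e-05). That is a level 0.572 times the WT level, with no overlap. Imp4, which binds the U3 snoRNA together with Imp3 and Mphosph10, was at 60.5 and 55.3 against 86.8 and 82.7 CPM (-0.55, SE 0.105, edgeR adjusted p = 0.000644). Its partners did not pass: Imp3 was at -0.27 (95% interval -0.53 to -0.01, edgeR adjusted p = 0.116) and Mphosph10 at -0.095 (95% interval -0.37 to 0.18). Of these, Imp3 was called without cKO replicate 2 (-0.45, adjusted p = 0.00842) and Mphosph10 without cKO replicate 1 (-0.33, adjusted p = 0.0470).

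Rrp9, a protein of the U3 snoRNP itself, was at 13.3 and 15.4 against 23.6 and 19.6 CPM (-0.58, SE 0.156, edgeR adjusted p = 0.00910). Its span shares 987 bases with Parp3 on the other strand, and the sources used here do not state the strand setting of the counting. Parp3 had 200 and 233 counts in the cKO libraries and 169 and 216 in WT, where Rrp9 had 154 and 221 against 231 and 250. The call of Rrp9 ended in DESeq2 (-0.60, adjusted p = 0.0530) and without WT replicate 1 (-0.45, adjusted p = 0.105). Ddx10, a DEAD-box helicase, was at 30.7 and 26.5 against 41.6 and 37.4 CPM (-0.47, SE 0.125, edgeR adjusted p = 0.00877). It lost its call without cKO replicate 2 (-0.36, adjusted p = 0.0526) or WT replicate 1 (-0.40, adjusted p = 0.0893). Dcaf13, whose yeast counterpart Sof1 is a processome protein, fell by 24.0% (log2 fold change -0.40, edgeR adjusted p = 0.00783), and this call ended without WT replicate 1 (adjusted p = 0.0504) or WT replicate 2 (adjusted p = 0.110).

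The 14 other processome members were not called, with log2 fold changes from -0.30 to 0.13. The large scaffold Utp20 was lowest (-0.30, edgeR adjusted p = 0.108). Nop14 followed Imp3 at -0.21, and then Utp3 at -0.19, Wdr43 at -0.15, Wdr75 at -0.15, Utp6 at -0.12, Utp15 at -0.11, Heatr1 at -0.097, Utp14a at -0.088 and Utp18 at -0.0093. The positive values belonged to Emg1, a methyltransferase of 18S ribosomal RNA, at 0.12 and to Utp4 at 0.13. Among proteins that form the transcription-linked subcomplex named UTP-A in yeast, here Utp4, Utp15, Heatr1, Wdr43 and Wdr75, 0 were called by edgeR or DESeq2.

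Factors of late 40S maturation showed no call in either tool and 0 of 5 had an unadjusted p under 0.05. In edgeR, 28.8% of all tested genes were called in either direction. Nob1, the endonuclease that makes the end of 18S ribosomal RNA, was at 11.8 and 16.7 against 16.8 and 16.7 CPM (-0.22). Ltv1 had 27.0 and 27.4 against 29.0 and 30.2 CPM (-0.12), and Rrp12, a factor for export of the subunit in yeast, had 18.02 and 16.7 against 17.5 and 20.8 CPM (-0.15). Tsr1 stood at 21.0 and 20.8 against 24.2 and 19.97 CPM (-0.073) and Bysl, bystin, at 23.0 and 23.9 against 26.1 and 21.5 CPM (-0.016). Each log2 fold change was negative and none passed, and their 95% intervals reached from -0.58 to 0.28.

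Of the 15 members that assemble the 60S subunit, 2 were lower and 0 higher, with a median of -0.097. The lower share is near the 14.4% of all tested genes called lower. Rrs1, which helps to install the 5S ribonucleoprotein in yeast, stood at 40.2 and 32.0 CPM in the cKO libraries and 59.8 and 56.2 CPM in WT (-0.69, SE 0.123, 95% interval -0.95 to -0.43, edgeR adjusted p = 0.000336). Mdn1, midasin, a giant AAA ATPase that removes assembly factors from the precursor, was at 111 and 83.7 against 148 and 135 CPM (-0.54, SE 0.121, edgeR adjusted p = 0.00254). The cKO libraries differed more from each other for Mdn1 than for Rrs1, but neither reached the WT values. Rrp1, the most abundant 60S factor here in CPM, was at 144 and 156 against 179 and 179 CPM (-0.26, SE 0.0971, 95% interval -0.46 to -0.05, edgeR adjusted p = 0.0547), just outside the threshold, and it passed with RLE factors (adjusted p = 0.0489) and without cKO replicate 2 (adjusted p = 0.0152).

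The PeBoW complex, which joins Pes1, Bop1 and Wdr12, was not called in any of its 3 genes, at -0.097 for Pes1, -0.21 for Bop1 and -0.26 for Wdr12. Both cKO libraries were below both WT libraries for each of them, as they were for 31.3% of all tested genes. Ebna1bp2 (-0.20), Mrto4 (-0.16), Nop2 (-0.090), Ftsj3 (-0.064), Las1l (-0.042) and Nop16 (-0.018) did not pass, although Ebna1bp2 was called without cKO replicate 2 (-0.47, adjusted p = 0.0107). Nop2 and Ftsj3 are ribosomal RNA methyltransferases, and Las1l is part of the endonuclease that cuts the spacer before 28S. On the other side lay the nucleolar GTPases Gnl2 (0.28, edgeR adjusted p = 0.141) and Gnl3, nucleostemin (0.21, edgeR adjusted p = 0.161), and the AAA ATPase Nvl (0.23, edgeR adjusted p = 0.254). For these the cKO libraries were above both WT libraries, as they were for 32.3% of all tested genes. With upper-quartile factors, Gnl2 (0.38, adjusted p = 0.0498) and Gnl3 (0.31, adjusted p = 0.0397) were called higher.

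**Figure D4:**
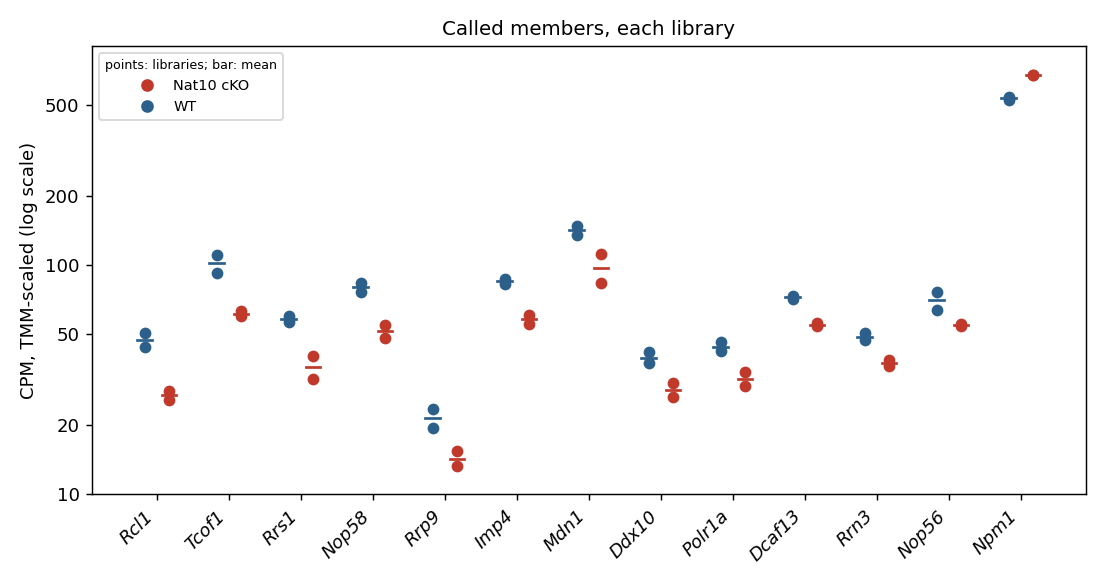
TMM-scaled CPM (vertical axis, log scale) of the 13 called members in each library, with points for libraries and a bar for each group mean. For each of the 12 lower members both cKO points lie below both WT points, and for Npm1 both lie above.

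Of the 13 calls, 6 held in each of the 10 alternatives run: those of Tcof1, Nop58, Imp4, Rcl1, Rrs1 and Mdn1. Their largest adjusted p over these alternatives was 0.0234, for Mdn1. Leaving out WT replicate 1 had the largest effect, with 7 members lower and 0 higher against 8.53% and 8.94% of tested genes. Leaving out WT replicate 2 left 10 lower and 0 higher. In DESeq2, 9 members were lower and 1 higher, against 9.53% and 7.52% of tested genes. On GRCm39, as the files give it, these genes span Tcof1 (chr18:60946827-60982043, minus strand), Nop58 (chr1:59724130-59758203, plus strand), Imp4 (chr1:34478932-34488437, plus strand), Rcl1 (chr19:29078775-29121329, plus strand), Rrs1 (chr1:9615633-9617680, plus strand) and Mdn1 (chr4:32657119-32775217, plus strand), and counts are over the whole gene.

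Levels between genes can be compared only per length, and here CPM was divided by the length of the principal transcript in kilobases. In WT, Npm1 was far above the rest at 326 CPM per kilobase. Rrp1 (90.4), Nhp2 (73.1), Ncl (72.5) and Fbl (66.4) followed. At the low end stood Nvl (2.01), Wdr12 (2.36), Polr1b (2.78), Utp20 (2.90) and Heatr1 (3.95). Among the members called lower, WT levels per kilobase ranged from 4.78 for Polr1a to 46.7 for Nop58. Lengths come from an annotation of another build, and a long annotated transcript end lowers the value. Across the 55 members, Spearman's rho between transcript length and log2 fold change was -0.062, and across 11421 tested genes it was -0.050. Genes of 1 library share its depth, so both are descriptions.

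MYC is a known activator of ribosome biogenesis genes through E-boxes. Myc rose, at 15.4 and 12.9 CPM in the cKO libraries and 7.97 and 8.62 CPM in WT (0.76, SE 0.182, edgeR adjusted p = 0.00408). Its relative Mycl fell from 7.05 ± 1.44 to 0.876 ± 0.141 CPM (SD, n = 2; -2.99, SE 0.345, edgeR adjusted p = 3.24e-06). Mxi1, which competes with MYC for its partner MAX, rose from 34.1 ± 3.79 to 53.2 ± 3.69 CPM (0.63, edgeR adjusted p = 0.000554). Of the 10 tested genes of the MYC network, 4 rose and 2 fell, where 14.4% of all tested genes were called in each direction. Besides Myc, Mxi1 and Mycl, these were Mxd3 (4.22, from 0 to 14 counts per library) and Mxd4 (0.46), both higher, and Mga (-0.53), lower. The part of the MYC network in the members' differences was not tested.

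Other genes of ribosome production were counted from lists that hold none of the 55, to be read against the 14.4% of all tested genes called lower, the 14.4% called higher and the 49.1% with a negative value. Of 34 other 40S assembly genes, 10 were lower and 0 higher (median -0.23, 29 negative), among them Rrp7a (139 ± 4.94 to 87.4 ± 0.124 CPM, -0.67, edgeR adjusted p = 5.44e-05) and Rrp36 (-0.61, edgeR adjusted p = 0.000729). This list of 34 includes Nat10 itself (-0.24, not called). With upper-quartile factors or in DESeq2 the 40S count was 4 lower, and it was 5 with library size only and without WT replicate 2. Of 40 other 60S assembly genes, 8 were lower and 0 higher (median -0.13, 34 negative). Those with the smallest p were Tma16 (293 ± 7.35 to 184 ± 13.8 CPM, -0.67, edgeR adjusted p = 3.68e-05) and Eif6, which keeps free 60S subunits from joining 40S (170 ± 5.74 to 106 ± 8.74 CPM, -0.68, edgeR adjusted p = 5.25e-05). Of 10 tested other RNA polymerase I genes, 2 were lower and 0 higher (median 0.029, 5 negative). The lower genes were the termination factor Ttf1 (-0.73, edgeR adjusted p = 0.00150) and the subunit Polr1f (-0.46, edgeR adjusted p = 0.00935). The call of Polr1f ended without cKO replicate 2 (-0.30, adjusted p = 0.0528) or WT replicate 1 (-0.34, adjusted p = 0.144).

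Lists of factors further from the precursor particles gave 0 or 1 call each by edgeR. The share of all tested genes called in either direction was 28.8%. Of 10 snoRNP assembly factors, Ruvbl2, an AAA ATPase that helps to build box C/D particles, was called higher (0.39, edgeR adjusted p = 0.0472), and that call ended in DESeq2, with RLE factors and when any 1 of the 4 libraries was left out. Of 9 tested proteins of RNase P and RNase MRP, Pop1 was lower (-0.84, edgeR adjusted p = 0.0181), a call that ended in DESeq2 and without WT replicate 1. Of 13 tested genes of the RNA exosome, 0 were called by edgeR or DESeq2 and 0 had an unadjusted p under 0.05.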

How the data were processed

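RNA-seq was compared between 2 libraries labelled Nat10 cKO and 2 WT. The authors deposited raw counts per gene, not normalized, for protein-coding genes, per the file headers. Per the submitters' processing notes, fastp 0.20.0, STAR 2.7.9a and featureCounts 2.0 were used on mm39 (GRCm39), after a cycloheximide wash and ribosomal RNA depletion per the labels. The annotation release and strand setting are not stated in the sources used here. Counts, total 10037338 to 14097638 per library, were filtered with filterByExpr at its default, scaled with TMM and tested two-sided with edgeR 4.0.16 in R 4.3.3 (glmQLFTest, group only), adjusted by Benjamini-Hochberg over 11448 genes. Each SE is the log2 fold change divided by the square root of F. DESeq2 1.42.0 and other alternatives are in the closing section. The procedure was tested on simulated data. Replicates differed by more than sampling noise (chi-square per gene 11.2 in cKO and 6.16 in WT). Transcript lengths came from GENCODE (GRCm38, APPRIS principal), matched by gene ID for all 55.

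Members, lists and alternatives were chosen with earlier results of these data known. Library values are given for every role of 5 or fewer members, the 8 called members with the largest changes, the smallest p and highest CPM per role, and calls against the majority; of other lists, the 2 called genes with the smallest p, plus Nat10 and Myc. Others named were chosen after their values were seen. Polr1g was not found under that symbol.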

Additional observations from a re-analysis of the deposited data

How the results depend on the processing

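Of 550 comparisons of a member with an alternative, 522 stayed on the same side of the threshold, 16 lost a call, 12 gained one and in 0 did a call change sign. The 12 members called lower became 13 with RLE factors, 10 with upper-quartile factors, 11 with library size only, 12 with no filter on low counts, 9 in DESeq2 and 7 to 15 with a library left out. The 1 called higher became 3 with upper-quartile factors and 0 to 1 with a library left out (0 without WT replicate 1 or WT replicate 2). The members' median of -0.15 was -0.049 with upper-quartile factors and -0.16 to -0.11 with a library left out. Over all genes, 1652 higher and 1650 lower became 935 higher and 1185 lower in DESeq2, 2247 and 1110 with upper-quartile factors, 2026 and 1252 with library size only, and 864 to 1576 higher and 973 to 1925 lower with a library left out. The low ends came without WT replicate 2 (864 and 973), and without WT replicate 1 the counts were 1058 and 1010.

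Called genes among other 40S factors, 10, numbered 4 with upper-quartile factors, 5 with library size only, 4 in DESeq2 and 5 to 10 with a library left out (6 without WT replicate 1, 5 without WT replicate 2). Other 60S factors, 8, gave 5 to 11 (5 without WT replicate 1). Other RNA polymerase I genes, 2, gave 1 to 4 (4 without cKO replicate 1, 1 without cKO replicate 2). The single snoRNP assembly call gave 0 with RLE factors and in DESeq2 and 0 to 1 with a library left out. That of RNase P and MRP gave 0 in DESeq2 and 0 to 3 with a library left out, and the exosome's 0 gave 0 to 1 (1 without cKO replicate 2). A lone library is assumed to vary like the other group. The cause of these shifts was not tested.

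With the replicate number as a block, 15 members were lower and 1 higher, 2175 and 2126 genes in all, and other RNA polymerase I genes called numbered 4. The numbers are not said to pair libraries, and the deviations of same-numbered libraries correlated at 0.149 across genes. The block added calls for Ncl, Imp3 and Rrp1.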

Other observations

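Replicates of a group were compared over the members and over all tested genes. The median absolute difference between the cKO libraries was 0.157 on the log2(CPM + 1) scale for members and 0.154 for all tested genes, and between the WT libraries it was 0.0954 against 0.129. In WT, replicate 1 lay above replicate 2 for 36 of 55 members (65.5%, against 48.7% of tested genes). In the cKO group replicate 1 lay above replicate 2 for 30 members (54.5%, against 49.5%).

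Overlaps with neighbours in the table touch 13 members, mostly by short stretches. The longest beyond Rrp9 were those of Pes1 with 4930556J24Rik (12804 bases, 0 to 1 counts per library), Tsr1 with Srr (2984 bases, 75 to 129 counts) and Bop1 with Scx (2007 bases, 0 to 5 counts). Nop56 shares 5 bases with Idh3b.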
